A study of Homo sapiens with 20 samples.

Results

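FDXR, its neighbour GRIN2C and ASTN2 are 3 of the 26485 gene rows measured in the nuclear RNA of HCT116 cells, a human colorectal carcinoma line with wild-type p53. The 3 rows were chosen by gene symbol, with their changes in these libraries known. FDXR is a p53 target. In experiment 1 both libraries with Nutlin-3a and no peptide had higher FDXR levels than the others, but a fit of that experiment alone did not call FDXR. In experiment 2 its levels overlapped between treatments. GRIN2C lies next to FDXR on chromosome 17 and was the 1 row called for the peptide under Nutlin-3a when experiment 1 was fitted alone. ASTN2 was 1 of the 3 rows called for that comparison in a fit of the read counts with replicate numbers as blocks. All 3 rows passed the filter on low values, a mean of at least 0.5 RPM (reads per library total of 1000000) over the 20 libraries, which 15958 rows passed. Levels are given as scaled RPM, RPM after a further scaling between libraries.

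The study asked how p53 activity responds when a stapled peptide blocks binding between p53 and the Mediator complex. All cells were electroporated, kept in 0.1% DMSO and harvested after 3 h. Nutlin_Peg6 cells received 10 µM bivalent peptide (Peg6 in the library titles) by electroporation, a further 200 nM in the medium and 10 µM Nutlin-3a. Nutlin_H2O cells received water in place of peptide and 10 µM Nutlin-3a. DMSO_Peg6 cells received the peptide with DMSO alone, and DMSO_H2O cells received water with DMSO alone. Each of the 4 conditions had 2 libraries in experiment 1 and 3 libraries in experiment 2. No label says whether the replicates were separate cultures, so the tests measure the spread between these libraries, which may be technical.

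Nutlin-3a is a small molecule that keeps MDM2 from binding p53, so that p53 accumulates and switches on its target genes. FDXR, ferredoxin reductase, is a mitochondrial flavoprotein that passes electrons from NADPH to the ferredoxins, which serve steroid-making P450 enzymes and the assembly of iron-sulfur clusters. GRIN2C encodes the GluN2C subunit of NMDA-type glutamate receptors, best known from the cerebellum. ASTN2, astrotactin 2, is a membrane protein known in mouse for trafficking its relative ASTN1 while young neurons migrate along glia.

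Summed reads over all rows ran between 36717795 and 63896604 per library in experiment 1 and between 18787172 and 47407746 in experiment 2. Nutlin_H2O replicate 2 of experiment 1 stood apart. Its 10 most abundant rows held 43.5% of its reads, against 25.1% to 30.4% in the other 7 libraries of that experiment, and its scaling factor was 0.685. Epithelial markers were abundant, with EPCAM at a mean of 239, KRT8 at 1385 and KRT18 at 651 scaled RPM, while the intestinal marker VIL1 was at only 0.194. The 10 neuron and glia markers summed to between 96.0 and 233 scaled RPM per library, nearly all of it TUBB3 with a mean of 137. Among the more restricted markers SYN1 averaged 1.53, SNAP25 0.398, RBFOX3 0.0254 and GABRA6 0.00214 scaled RPM. The 4 leukocyte markers summed to at most 0.745 and the 4 fibroblast and endothelial markers to at most 1.38 scaled RPM. In bulk RNA, fewer cells of a type and less RNA per cell cannot be told apart.

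The FDXR and GRIN2C rows lie in tandem on the minus strand. In hg38 coordinates the FDXR row covers chr17:74862497-74868565, or 6.07 kb, and carries the isoform NM_001258016. The GRIN2C row covers chr17:74842023-74859884, or 17.9 kb, with the isoform NR_103735. Transcription on the minus strand runs towards lower coordinates, so GRIN2C is downstream of FDXR, with 2612 bases between the end of the FDXR row and the start of the GRIN2C row. The rows do not overlap, and share no base. In the RefSeq annotation (GRCh38.p14) the genes themselves are 964 bases apart, and the FDXR gene begins 4429 bases upstream of its counted row. The counted spans are identical in both experiments.

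The ASTN2 rows differ between the experiments. The row of experiment 1 covers chr9:116425225-116651755 on the minus strand, 227 kb with the isoform NM_001184734. That of experiment 2 covers chr9:116610844-116651755, 40.9 kb with the isoform NM_001184735, which is 18.1% of the longer row. The longer row lies at the downstream end of a 992 kb gene, and the shorter one is the upstream end of the longer row. ASTN2 levels are therefore compared within an experiment only. Of the 26485 rows, 1667 differ in isoform or span between experiments. ASTN2-AS1, annotated on the opposite strand, lies inside the longer row.

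The values behaved as reads counted by strand over whole spans, introns included. Short rows of at most 400 bases and 1000 or more reads were looked up inside longer rows of over 2000 bases. On the same strand the longer row held at least as many reads in 259 of 259 pairs in experiment 1 and in 310 of 310 in experiment 2. On the opposite strand the longer row held fewer reads in 6 of 8 pairs in experiment 1 and in 3 of 4 in experiment 2. Reads of other transcripts that lie inside a row on the same strand are thus part of its value. Spliced reads whose intron spans a row were not checked.

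The upstream sequence of FDXR is shown because p53 binds DNA through paired half-sites and FDXR is a known p53 target. The 250 bases before the annotated FDXR start, credited to RefSeq (GRCh38.p14) and located at chr17:74872995-74873244 on the minus strand, hold 1 match to the p53 half-site consensus, in capitals.
FDXR: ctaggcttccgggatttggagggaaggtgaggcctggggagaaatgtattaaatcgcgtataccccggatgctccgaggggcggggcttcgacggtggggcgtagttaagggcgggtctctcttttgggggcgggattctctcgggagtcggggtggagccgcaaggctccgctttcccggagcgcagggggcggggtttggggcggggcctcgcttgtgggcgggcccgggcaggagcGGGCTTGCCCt
The match ends 2 bases before the start. The consensus reads the same on both strands and was found in 5.57% of the 35116 annotated upstream windows of the same length. A pair of half-sites with a spacer of at most 13 bases was not found in this window, and 0.0256% of all windows hold one. The GC-box letters GGGCGG, searched on both strands, occur 6 times here without overlapping the half-site. At least 1 copy was found in 42.6% of windows and at least 4 copies in 6.50%. The second annotated FDXR start, whose window chr17:74868754-74869003 ends just upstream of the counted row, has 0 half-sites and 0 GGGCGG. The 3 windows of ASTN2 have 0 half-sites. These letters describe the windows and say nothing of binding in these cells.

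Per kb of span, FDXR was the most abundant of the 3. It averaged 9.15 scaled RPM per kb over the 8 libraries of experiment 1 and 10.2 over the 12 of experiment 2. GRIN2C averaged 0.608 and 0.380 scaled RPM per kb in experiments 1 and 2, and ASTN2 0.304 and 0.0243 on its unequal rows, which are not compared with each other. The rows rested on 1017 to 4043 reads per library for FDXR and 93 to 982 for GRIN2C. ASTN2 had 1977 to 4773 reads per library in experiment 1 but only 17 to 52 in experiment 2, where a change of a few reads moves its level.

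In experiment 1, all 3 rows were highest in cells given Nutlin-3a without peptide, and in cells given both they were near or below the level without Nutlin-3a. FDXR stood at 37.1 and 47.2 scaled RPM in Nutlin_Peg6, 79.3 and 121 in Nutlin_H2O, 39.9 and 41.9 in DMSO_Peg6, and 38.6 and 39.6 in DMSO_H2O. The Nutlin_H2O libraries lay above all 6 others, and the Nutlin_Peg6 pair enclosed the DMSO_Peg6 pair. GRIN2C stood at 4.14 and 3.79 scaled RPM in Nutlin_Peg6, 22.3 and 29.3 in Nutlin_H2O, 5.97 and 6.89 in DMSO_Peg6, and 6.97 and 7.52 in DMSO_H2O. Again the Nutlin_H2O libraries were above all others, but here the Nutlin_Peg6 libraries were below every library without Nutlin-3a. ASTN2 stood at 60.6 and 52.3 scaled RPM in Nutlin_Peg6, 122 and 83.4 in Nutlin_H2O, 62.7 and 60.0 in DMSO_Peg6, and 58.1 and 52.3 in DMSO_H2O. The Nutlin_H2O pair was above the other 6 libraries, which ran between 52.3 and 62.7.

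**Figure D1:**
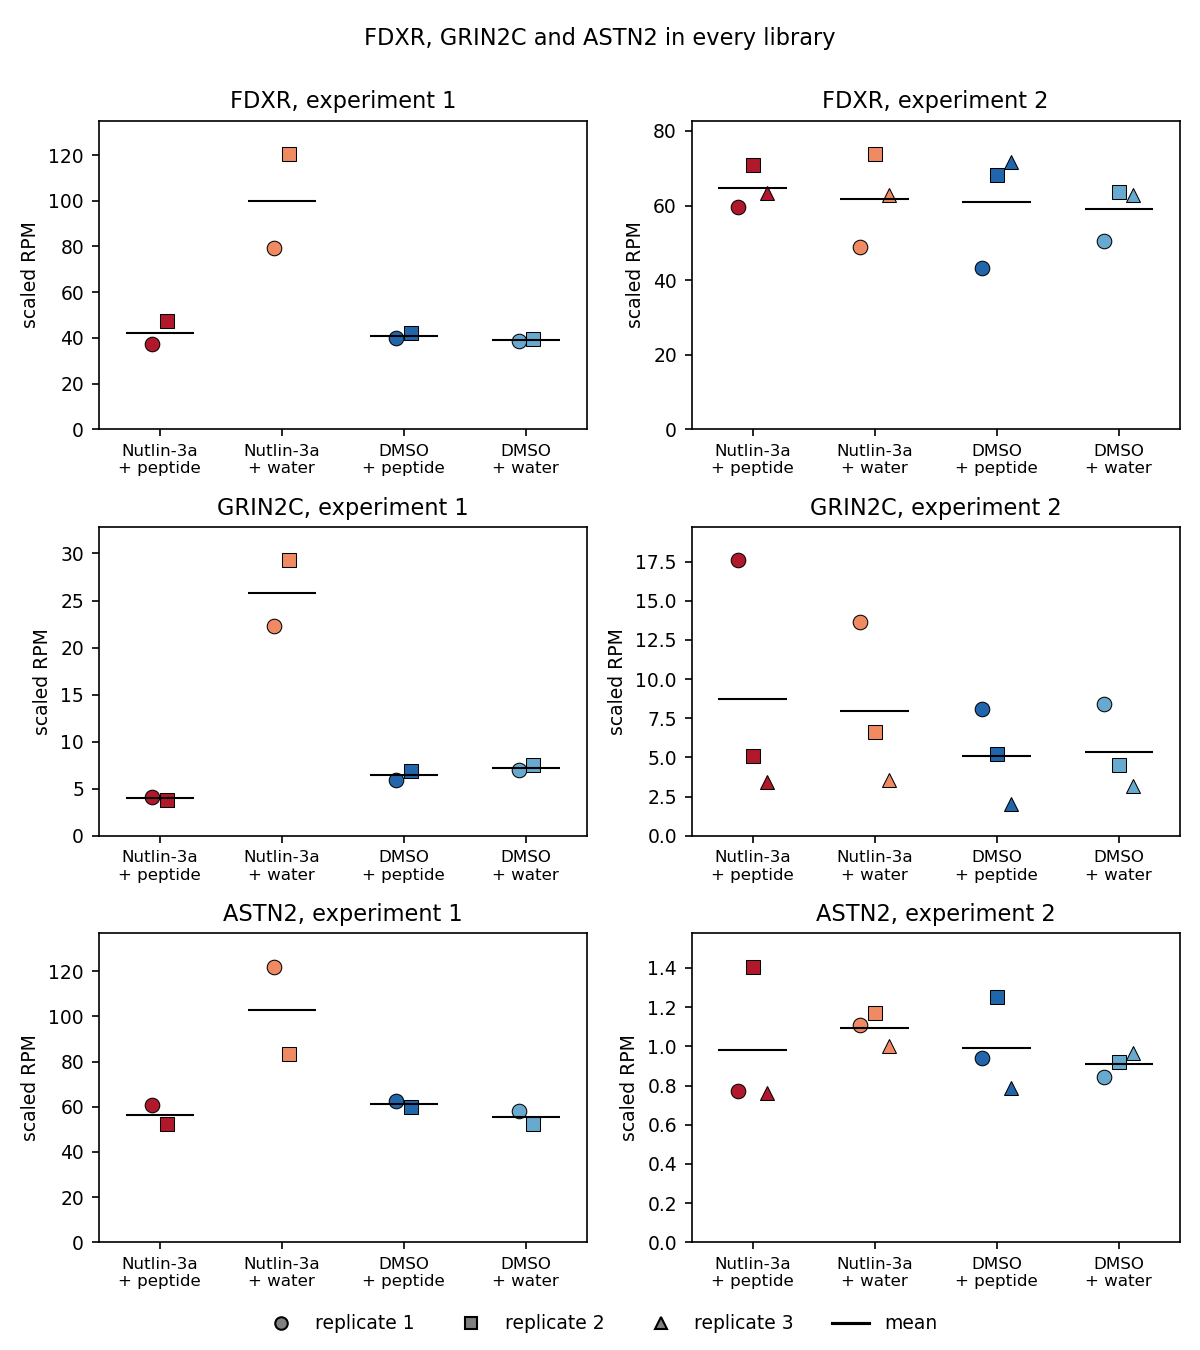
Level of FDXR, GRIN2C and ASTN2 (rows of panels) in scaled RPM in each library of experiment 1 (left) and experiment 2 (right), by condition, with symbols for replicate numbers and a line at the mean. In experiment 1 both Nutlin-3a libraries without peptide lie above all others for each gene, at 79.3 and 121 for FDXR. In experiment 2 the conditions overlap for FDXR and GRIN2C, and the ASTN2 row is a shorter one.

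In experiment 2 the replicate number separated the FDXR and GRIN2C libraries more than the treatment did. FDXR stood at 59.7, 71.0 and 63.3 scaled RPM (replicates 1, 2 and 3) in Nutlin_Peg6, 48.9, 73.9 and 62.8 in Nutlin_H2O, 43.4, 68.1 and 71.7 in DMSO_Peg6, and 50.6, 63.7 and 62.9 in DMSO_H2O. All 4 conditions overlapped, and replicate 1 was the lowest in each. GRIN2C stood at 17.6, 5.11 and 3.44 scaled RPM in Nutlin_Peg6, 13.6, 6.64 and 3.59 in Nutlin_H2O, 8.07, 5.24 and 2.04 in DMSO_Peg6, and 8.40, 4.51 and 3.19 in DMSO_H2O. Replicate 1 was the highest in each condition and replicate 3 the lowest. The 10 most abundant rows took 7.23% to 11.1% of the reads of the replicate 1 libraries, against 5.56% to 7.11% in the other 8 libraries of experiment 2. The part of this difference in the GRIN2C and FDXR levels was not tested.

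ASTN2 in experiment 2 stood at 0.774, 1.41 and 0.763 scaled RPM in Nutlin_Peg6, 1.11, 1.17 and 1.00 in Nutlin_H2O, 0.942, 1.25 and 0.787 in DMSO_Peg6, and 0.845, 0.922 and 0.964 in DMSO_H2O. The Nutlin_H2O libraries were above the DMSO_H2O libraries by a narrow margin, and both peptide conditions spanned them. The 3 Nutlin_Peg6 libraries rested on 19, 41 and 43 reads.

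Nutlin-3a against DMSO without peptide is one of the comparisons with which the 3 genes were chosen, so its values are a description. In experiment 1 the mean log2 difference between same-numbered libraries, on the log2(scaled RPM + 0.5) scale used throughout, was 1.31 for FDXR, 1.75 for GRIN2C and 0.87 for ASTN2. These are the 14th, 7th and 56th highest of the 15958 rows. In experiment 2 it was 0.05 for FDXR, 0.44 for GRIN2C and 0.18 for ASTN2, the ranks being 6335, 203 and 2894. All 3 members had both Nutlin_H2O libraries of experiment 1 above both DMSO_H2O libraries, as did 9.31% of all rows, and in experiment 2 this held for ASTN2 alone, against 1.23% of rows. FDXR and GRIN2C were at least 2-fold higher in experiment 1, as were 0.201% of rows.

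By same-numbered pair, GRIN2C was higher with Nutlin-3a in 5 of 5 pairs, by 1.61 and 1.89 in experiment 1 and by 0.67, 0.51 and 0.15 in experiment 2. ASTN2 was also higher in 5 of 5, by 1.06 and 0.67 in experiment 1 and by 0.26, 0.23 and 0.04 in experiment 2. Of all rows 3.07% were higher in all 5 pairs. FDXR was higher in 3 of 5 pairs, by 1.03 and 1.59 in experiment 1 and by 0.21 in replicate 2 of experiment 2, while the other two pairs of that experiment had -0.05 and -0.003. The first pair of experiment 1, which does not include the library that stood apart, had differences of 1.03 for FDXR, 1.61 for GRIN2C and 1.06 for ASTN2.

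For orientation, the canonical p53 targets CDKN1A, which encodes the cell-cycle inhibitor p21, and MDM2, which encodes the ubiquitin ligase of p53, had log2 differences of 1.94 and 1.24 in experiment 1 and 0.66 and 0.78 in experiment 2. Across both experiments the fitted differences were 0.56 ± 0.23 (SE) for FDXR, 0.97 ± 0.49 for GRIN2C and 0.45 ± 0.17 for ASTN2 (n = 5 libraries a condition). With replicate numbers as blocks the SEs were 0.20 for FDXR, 0.31 for GRIN2C and 0.14 for ASTN2. Without Nutlin_H2O replicate 2 of experiment 1 the FDXR value was 0.32, and without replicate 1 of that group the ASTN2 value was 0.29. Limma called 0.0% of the 15958 rows at an adjusted p under 0.05 in this comparison, 94 rows having an unadjusted p under 0.05. CDKN1A and MDM2 were thus not called either. Limma-voom on the recovered reads also called 0, and with replicate numbers as blocks it called 15, or 0.094% of rows.

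The peptide against water under Nutlin-3a, the other comparison used in the choice, ran the opposite way in experiment 1. The mean log2 difference there was -1.21 for FDXR, -2.55 for GRIN2C and -0.84 for ASTN2, the 25th, 2nd and 162nd lowest of the 15958 rows. GRIN2C in Nutlin_Peg6 was thus at 0.171 of its level in Nutlin_H2O, FDXR at 0.431 and ASTN2 at 0.560. Both Nutlin_Peg6 libraries were below both Nutlin_H2O libraries for all 3 members, as for 11.4% of all rows. A 2-fold or larger deficit was seen for FDXR and GRIN2C and for 0.483% of rows. In the pair without the library that stood apart the differences were -1.08 for FDXR, -2.30 for GRIN2C and -1.005 for ASTN2.

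In experiment 2 the same comparison gave 0.08 for FDXR, -0.01 for GRIN2C and -0.13 for ASTN2, and the groups overlapped for all 3. The 3 pairs had 0.28, -0.06 and 0.01 for FDXR, 0.36, -0.35 and -0.05 for GRIN2C, and -0.34, 0.19 and -0.25 for ASTN2, so no member kept 1 direction. CDKN1A had -1.66 in experiment 1 and -0.11 in experiment 2, and MDM2 -1.11 and -0.03. Over both experiments the fitted differences were -0.44 ± 0.23 (SE) for FDXR, -1.03 ± 0.49 for GRIN2C and -0.41 ± 0.17 for ASTN2. The SEs with replicate numbers as blocks were 0.20, 0.31 and 0.14 in the same order. Without Nutlin_H2O replicate 2 of experiment 1 the FDXR value was -0.20, and without replicate 1 of that group the ASTN2 value was -0.26. Limma called 0.0% of rows here, with 80 at an unadjusted p under 0.05. Limma-voom without blocks called 0, blocked limma-voom 3 rows or 0.0188%, and limma on experiment 1 alone 1 row or 0.00627%.

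The remaining comparisons were not used in the choice, but each shares libraries with those above. For the peptide against water without Nutlin-3a, no member differed by limma. FDXR had a log2 difference of 0.04 (95% interval -0.45 to 0.53, adjusted p = 1.00) and was higher in 4 of 5 pairs. GRIN2C had -0.14 (interval -1.17 to 0.88, adjusted p = 1.00) and was lower in 4 of 5 pairs. ASTN2 had 0.10 (interval -0.26 to 0.47, adjusted p = 1.00) and was higher in 4 of 5 pairs. With replicate numbers as blocks the intervals were -0.37 to 0.45 for FDXR, -0.80 to 0.51 for GRIN2C and -0.18 to 0.39 for ASTN2. In experiment 1 both DMSO_Peg6 libraries were above both DMSO_H2O libraries for FDXR and ASTN2, as for 25.4% of rows, and below them for GRIN2C, as for 9.93%. Limma called 0.0% of rows, with 14 at an unadjusted p under 0.05, and limma-voom called 0 with or without blocks.

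In peptide-treated cells, Nutlin-3a against DMSO gave no called difference either. FDXR had a log2 difference of 0.08 (95% interval -0.41 to 0.57, adjusted p = 1.00) and was higher in 3 of 5 pairs. ASTN2 had -0.07 (interval -0.43 to 0.30, adjusted p = 1.00) and was lower in 4 of 5 pairs. With replicate numbers as blocks the intervals were -0.33 to 0.49 for FDXR, -0.35 to 0.22 for ASTN2 and -0.57 to 0.74 for GRIN2C. Without blocks GRIN2C had 0.08 (interval -0.94 to 1.11, adjusted p = 1.00), the mean of opposite directions. In experiment 1 it was -0.63, the 28th lowest row, with both Nutlin_Peg6 libraries below both DMSO_Peg6 libraries, as for 20.1% of rows. In experiment 2 it was 0.56, the 57th highest row, with 1.08, -0.03 and 0.63 in the 3 pairs. The difference between experiments was -1.19 ± 0.89 (SE) and was not called by limma (adjusted p = 1.00), nor with replicate numbers as blocks (SE 0.28, adjusted p = 0.181). Without blocks, for FDXR that difference was -0.08 ± 0.35 and for ASTN2 -0.10 ± 0.33. Limma called 0.0% of rows in this comparison, with 26 at an unadjusted p under 0.05, while limma-voom called 0 and, with blocks, 16.

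Whether FDXR and GRIN2C move together was read library by library. In experiment 1 their log2 levels had a Pearson r of 0.90 and a Spearman rho of 0.45 over 8 libraries that share their depth and scaling. The libraries fell into 2 clusters, the 2 Nutlin_H2O libraries and the other 6. Within those 6, r was -0.36 and rho -0.31, so the pooled r rests on the Nutlin_H2O libraries. In experiment 2, r was -0.55 and rho -0.52 over 12 libraries, and r was -0.42 without the 2 libraries farthest from the FDXR median. Taken as deviations from condition means, r was 0.67 in experiment 1 and -0.66 in experiment 2. Taken as deviations from the mean of same-numbered libraries, it was 0.91 in experiment 1 and 0.45 in experiment 2. These are descriptions without a test.

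**Figure D2:**
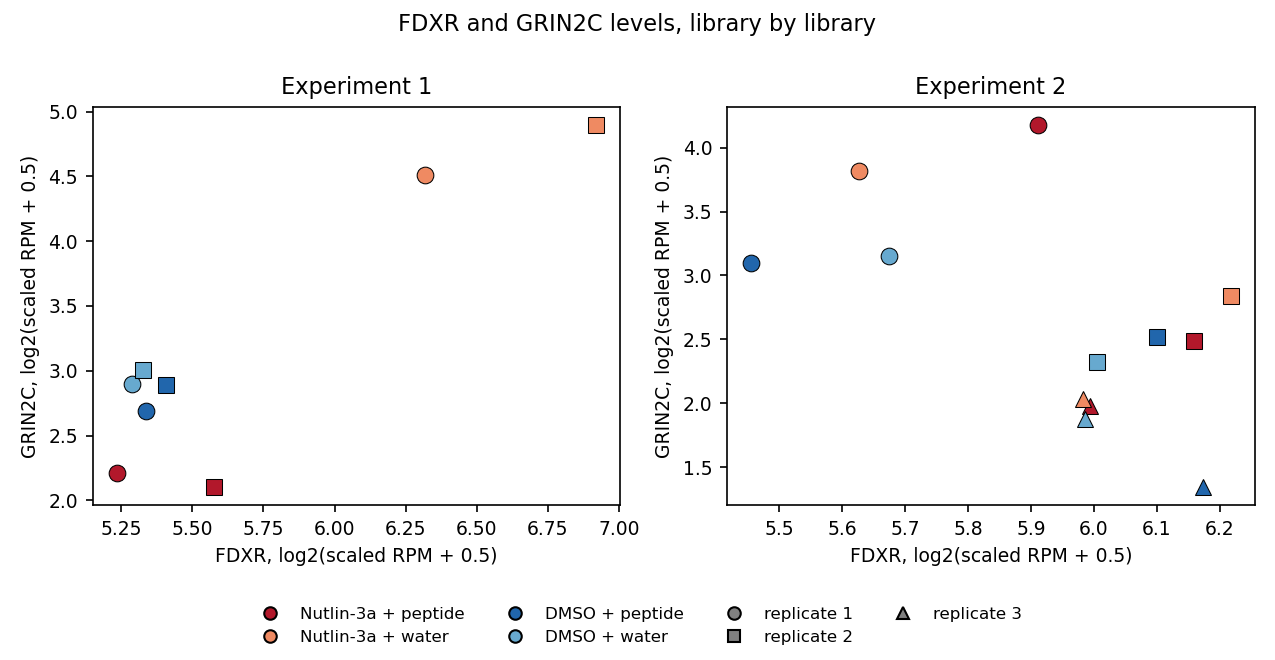
GRIN2C against FDXR, both as log2(scaled RPM + 0.5), in the 8 libraries of experiment 1 (left) and the 12 of experiment 2 (right), coloured by condition and with symbols for replicate numbers. In experiment 1 the 2 Nutlin-3a libraries without peptide lie alone at the top right (r = 0.90 with them, -0.36 without), and in experiment 2 replicate 1 lies at the upper left (r = -0.55).

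Other genes in tandem give the scale for these values. There were 3430 pairs of neighbouring rows on the same strand, both past the filter and at most 20 kb apart. In experiment 1 the median r of such pairs was 0.64, and FDXR with GRIN2C ranked 586th from the highest. In experiment 2 the median was 0.18 and the pair ranked 2830th. After removal of the replicate means the pair ranked 454th in experiment 1 and 882nd in experiment 2, with medians of 0.58 and 0.14.

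The upstream row was at least 2-fold higher with Nutlin-3a in experiment 1 in 10 of these pairs. The downstream row was at least 2-fold higher too in 3 of the 10, FDXR with GRIN2C and 2 pairs of histone genes, against 0.292% of all tandem pairs. The downstream row was above 0 in 10 of 10, with a median log2 difference of 0.55, against 63.1% above 0 and a median of 0.11 over all tandem pairs. FDXR with GRIN2C, a chosen pair, is among the 10, and 3 of the others are 1 chain of histone genes, HIST1H2AE, HIST1H3E, HIST1H4F and HIST1H2BH, that share rows. Other p53 targets among the 10 had smaller differences downstream. CDKN1A had 1.94 and RAB44 beyond it 0.57, BAX 1.06 and FTL 0.62, and DDB2 1.13 and NR1H3 0.25. In the FDXR pair the downstream difference exceeded the upstream one. Only 1 other of the 10 pairs, HIST1H3E with HIST1H4F, had a larger downstream difference, at 1.09 for the upstream and 1.26 for the downstream row.

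The ratio of GRIN2C to FDXR reads within a library needs no scaling between libraries. In experiment 1 there were 11.1 and 8.04 GRIN2C reads per 100 FDXR reads in Nutlin_Peg6, 28.1 and 24.3 in Nutlin_H2O, 14.9 and 16.4 in DMSO_Peg6, and 18.1 and 18.96 in DMSO_H2O. The 95% exact intervals cover counting error only, and the pair was chosen with its values known, so they are a description. The intervals were 9.64 to 12.8 and 6.80 to 9.46 in Nutlin_Peg6, and 26.1 to 30.3 and 22.6 to 26.05 in Nutlin_H2O. They did not meet those of the DMSO libraries, whose bounds lay between 13.02 and 21.5. GRIN2C was thus high relative to FDXR with Nutlin-3a alone and low relative to it with both agents. In both directions GRIN2C differed by more than FDXR did in that experiment.

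In experiment 2 the ratio followed the replicate number. It was 29.5, 7.21 and 5.44 (replicates 1, 2 and 3) in Nutlin_Peg6, 27.8, 8.99 and 5.72 in Nutlin_H2O, 18.6, 7.70 and 2.85 in DMSO_Peg6, and 16.6, 7.08 and 5.07 in DMSO_H2O. Replicate 1 was above replicates 2 and 3 in each condition. Within replicate 1, both Nutlin-3a libraries were above both DMSO libraries and their intervals, 26.4 to 32.9 and 24.6 to 31.5, did not meet the DMSO intervals, which reached at most 21.7. Within replicates 2 and 3, the intervals of Nutlin_Peg6, Nutlin_H2O and DMSO_H2O overlapped, and DMSO_Peg6 replicate 3 was lower, at 2.33 to 3.45.

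**Figure D3:**
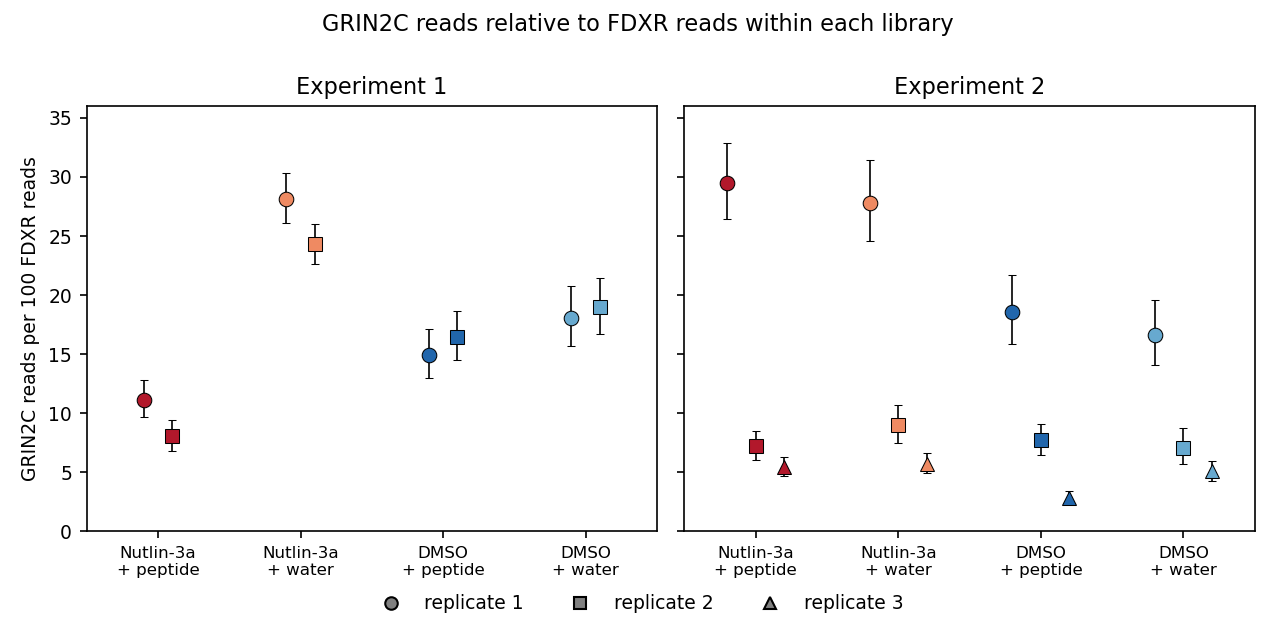
GRIN2C reads per 100 FDXR reads in each library of experiment 1 (left) and experiment 2 (right) by condition, with 95% exact intervals for counting error. In experiment 1 the Nutlin-3a libraries without peptide (28.1 and 24.3) lie above and those with peptide (11.1 and 8.04) below the 4 DMSO libraries, and in experiment 2 replicate 1 lies above the other replicates in every condition.

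No other row of the neighbourhood had differences of this size in experiment 1. Within 250 kb of the FDXR and GRIN2C rows lie 21 other rows, of which 12 passed the filter. Limma called 0 of the 12 in any of the 4 comparisons, as it called 0.0% of all rows. For Nutlin-3a without peptide in experiment 1, they had log2 differences between -0.14 (ATP5H) and 0.51 (RAB37) with a median of 0.11, against -0.04 over all rows. In that direction 11 of the 12 were above 0, as were 45.2% of all rows. Over all tandem pairs the downstream row was above 0 in 63.1%, with a median of 0.11. In experiment 2 they had -0.30 (ARMC7) to 0.10 (TMEM104), and 4 of the 12 were above 0, against 51.5% of all rows. For the peptide under Nutlin-3a in experiment 1, they ran between -0.45 (RAB37) and 0.49 (ATP5H), with a median of -0.245 against 0.09 over all rows. Here 9 of the 12 were below 0, as were 39.6% of all rows. In experiment 2, 8 of the 12 were above 0 with the peptide under Nutlin-3a, as were 51.3% of all rows. Most neighbours thus had the signs of FDXR and GRIN2C in experiment 1, and none reached the 1.31 and 1.75, or the -1.21 and -2.55, of FDXR and GRIN2C.

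The rows that flank the pair were lowly expressed upstream and abundant downstream. FADS6, a fatty acid desaturase gene on the same strand 8745 bases upstream of the FDXR row, had a mean of 0.0342 scaled RPM in experiment 1 and failed the filter. TMEM104, a transmembrane protein gene on the opposite strand, ends 5335 bases beyond the GRIN2C row and averaged 65.9 scaled RPM in experiment 1. Its log2 differences in experiment 1 were 0.01 for Nutlin-3a without peptide and -0.30 for the peptide under Nutlin-3a. On the opposite strand and beyond the row, its reads are not part of the GRIN2C value where strand was kept. NAT9, the next minus-strand row past the filter downstream of GRIN2C, had 0.13 and -0.20 in the same comparisons.

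**Figure D4:**
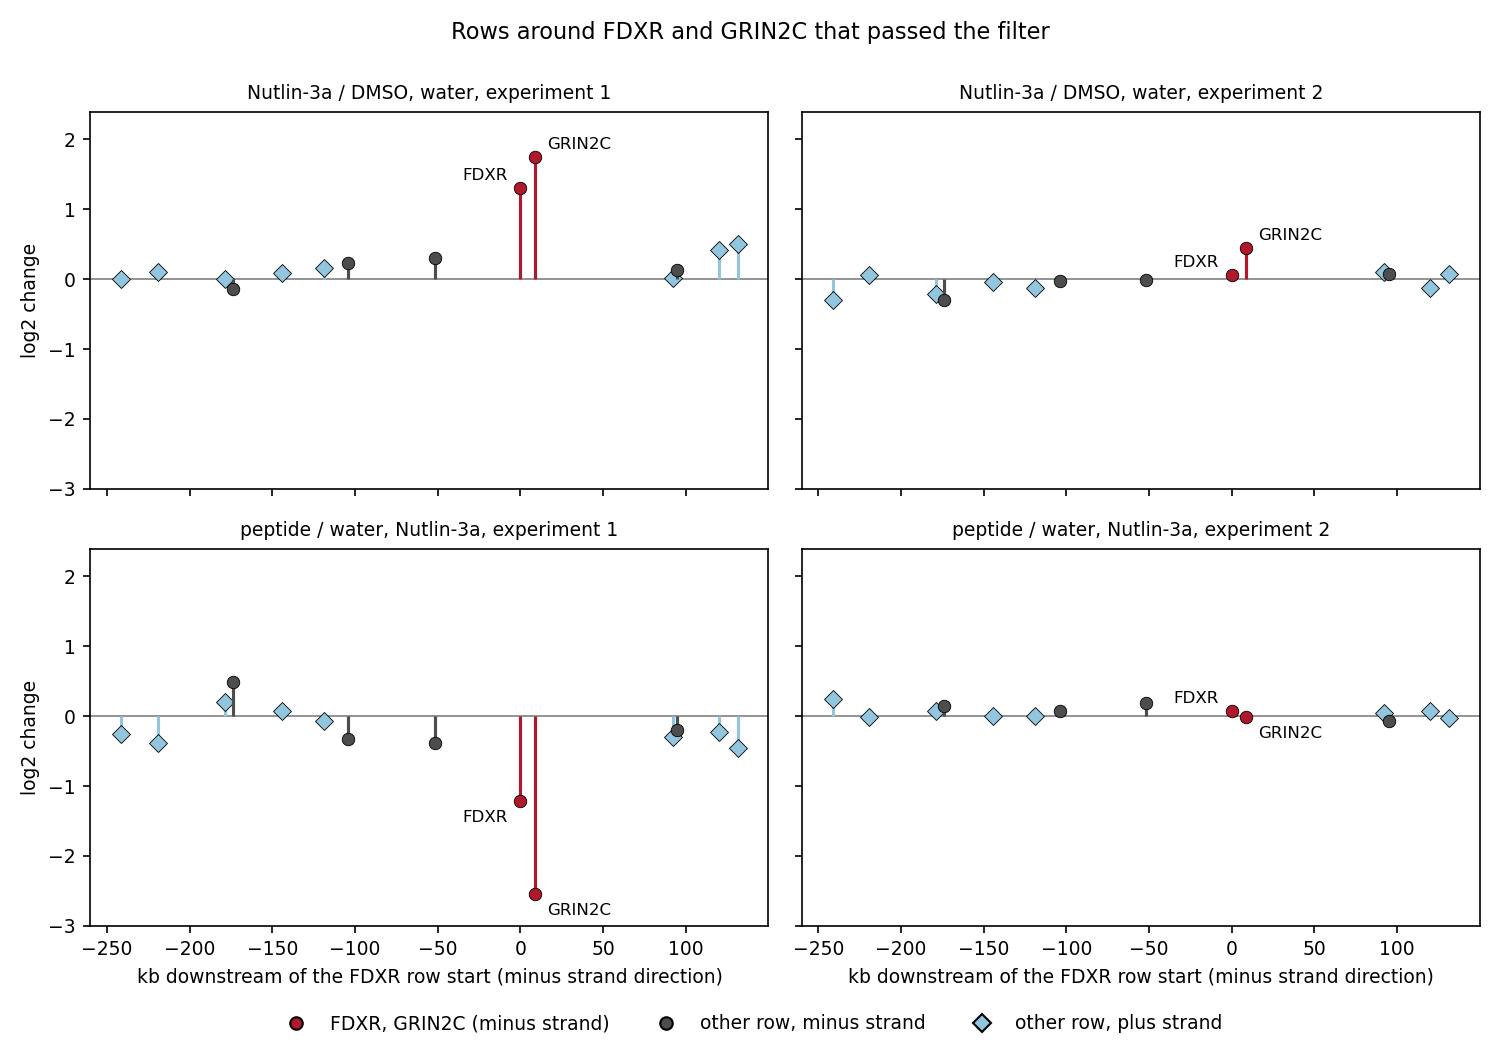
Mean log2 difference of each row past the filter within 250 kb of FDXR and GRIN2C against its start's distance from the FDXR row start in kb, positive in the direction of transcription of FDXR, for Nutlin-3a against DMSO without peptide (top) and peptide against water under Nutlin-3a (bottom), in experiment 1 (left) and experiment 2 (right). In experiment 1 FDXR and GRIN2C (red) stand at 1.31 and 1.75 and at -1.21 and -2.55, and the 12 other rows lie between -0.45 and 0.51.

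The neighbours of ASTN2 gave fewer values. Of 4 rows nearby, TRIM32 alone passed the filter. TRIM32, a ubiquitin ligase gene on the opposite strand, begins 35546 bases beyond the ASTN2 row and lies inside the annotated ASTN2 gene. Its log2 differences were 0.28 and 0.22 with Nutlin-3a without peptide in experiments 1 and 2. For the peptide under Nutlin-3a they were -0.12 in both. TRIM32 was not called by limma in any comparison, and neither was any other row. ASTN2-AS1, inside the ASTN2 row of experiment 1 on the opposite strand, averaged 1.28 scaled RPM there and failed the filter. Its differences in experiment 1 were -0.42 with Nutlin-3a and 0.54 with the peptide under Nutlin-3a, opposite in sign to those of ASTN2. PAPPA, a metalloproteinase gene, and PAPPA-AS1 averaged 0.193 and 0.826 scaled RPM in experiment 1.

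Long rows in general held more of the reads in experiment 1. Among rows with the same span in both tables, the median log2 ratio of experiment 1 to experiment 2 per kb was 1.80 for the 712 rows of 200 kb or more and -0.60 for the 7496 rows under 20 kb. FDXR was at 0.901 and GRIN2C at 1.60 of the level per kb of experiment 2. The ASTN2 levels were not compared, since its rows differ. The experiments share no library, so what sets this shift cannot be told apart here.

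The rows most like each member were sought by Pearson r over the 20 libraries, with log2 levels centred within each experiment. For FDXR these were BBC3 (r = 0.89), which encodes the pro-apoptotic protein PUMA, ADCK3 (0.88), a coenzyme Q biosynthesis kinase gene, WRAP73 (0.85), SESN2 (0.84), a stress-response sestrin gene, and ARVCF (0.83), a catenin gene. BBC3 and SESN2 are known p53 targets. GRIN2C was only the 2064th row by likeness to FDXR, with r = 0.40, while CDKN1A was the 71st with 0.71. BBC3 had log2 differences of 1.77 and 0.36 with Nutlin-3a in experiments 1 and 2, against 1.31 and 0.05 for FDXR.

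For GRIN2C the most alike rows were SLC22A20 (r = 0.94), ZNF79 (0.92), EPS8L2 (0.91), SYTL1 (0.91) and MICALL1 (0.89). They encode an organic anion transporter family member, a zinc finger protein, an EPS8-like protein, a synaptotagmin-like protein and a protein of membrane recycling. All 5 were lower with the peptide under Nutlin-3a in experiment 1, by log2 differences of -0.67 to -1.38. FDXR was the 2748th row by likeness to GRIN2C, and CDKN1A the 51st with 0.79.

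For ASTN2 they were PPM1D (r = 0.85), DRAM1 (0.84), ACER2 (0.83), FAS (0.82) and ANXA4 (0.82). PPM1D encodes a phosphatase that acts on p53, DRAM1 an autophagy regulator, ACER2 a ceramidase, FAS a death receptor and ANXA4 an annexin, and the first 4 are known p53 targets. CDKN1A was the 19th row with 0.71 and MDM2 the 28th with 0.66. In experiment 1 alone MDM2 was the 2nd row by likeness to ASTN2, with r = 0.99 over 8 libraries, and in experiment 2 r was 0.70 over 12. Without centring, the 5 most alike rows were HIST1H2AB, HIST1H3B, HIST1H2AH, HIST1H3A and MVB12B, all at an r of 0.99, and all 5 were far more abundant in experiment 1. That r includes the change of the ASTN2 row between the experiments. HIST1H3B, for example, averaged 223 scaled RPM in experiment 1 and 0.199 in experiment 2. All these correlations are among libraries that share a scaling, and the rows were picked for them. No list of p53 targets beyond CDKN1A and MDM2 was used, so a row not named as a target may still be one.

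**Figure D5:**
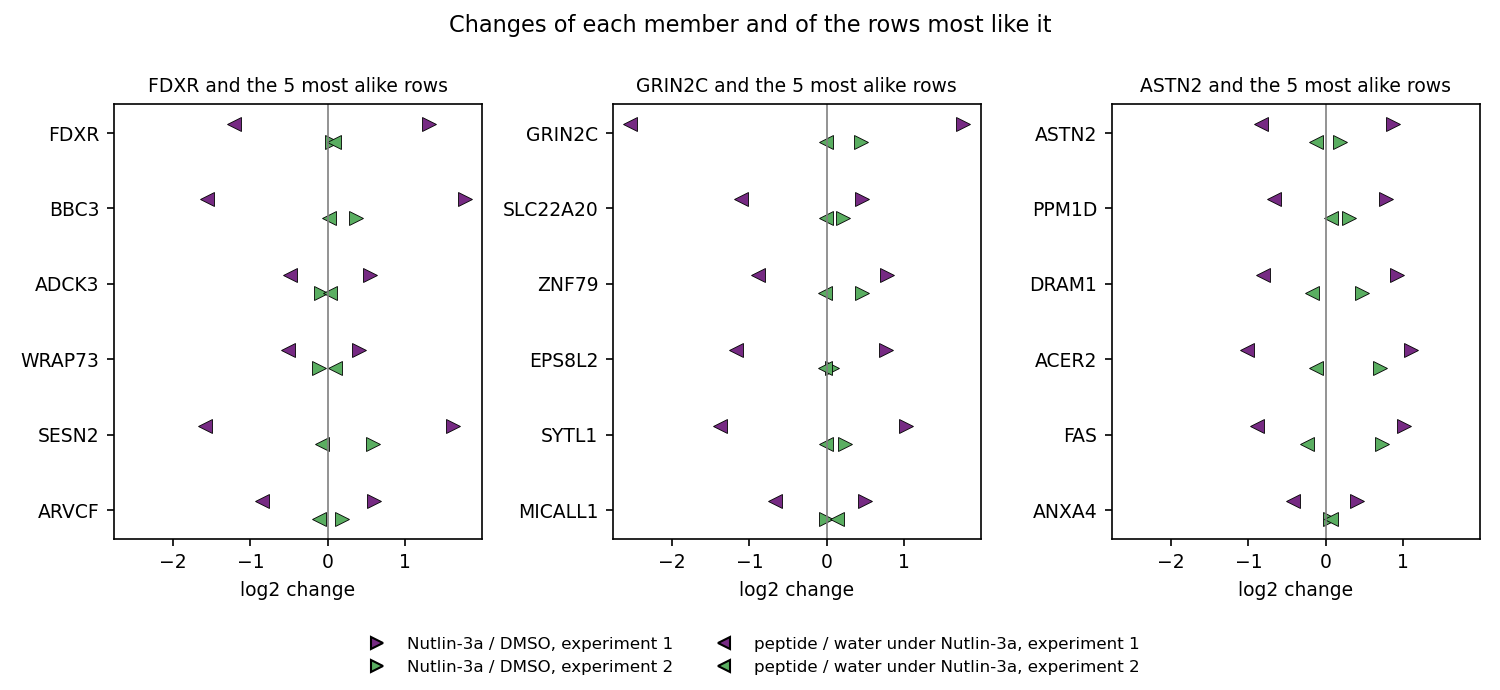
Mean log2 differences of FDXR, GRIN2C and ASTN2 (top line of each panel) and of the 5 rows most like each, for Nutlin-3a against DMSO without peptide (right-pointing) and peptide against water under Nutlin-3a (left-pointing), in experiment 1 (purple) and experiment 2 (green). In experiment 1 the differences of every row shown are positive with Nutlin-3a and negative with the peptide, and in experiment 2 the peptide differences lie between -0.24 and 0.13.

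The partners of FDXR past the filter had smaller differences than FDXR in experiment 1, of either sign. Of 13 measured genes of the ferredoxin chain and its P450 partners, 7 passed the filter and limma called 0 in each of the 4 comparisons, with or without replicate blocks. As limma called 0.0% of all rows in these fits, that count does not set the list apart. Their median log2 difference was 0.01 for Nutlin-3a without peptide and -0.04 for the peptide under Nutlin-3a, against medians of -0.02 and 0.04 over all rows. In experiment 1 alone the medians were 0.12 and -0.16, against -0.04 and 0.09 over all rows, with 4 of 7 above 0 in the first comparison and 5 of 7 below 0 in the second. TSPO, a mitochondrial outer membrane protein gene, had 0.40 and -0.25 there, CYP27B1, the vitamin D 1-alpha-hydroxylase, 0.35 and -0.33, and STARD3, a cholesterol transfer protein gene, 0.12 and -0.24, all with the signs of FDXR. FDX1, the ferredoxin of steroid synthesis, averaged 23.8 scaled RPM in experiment 1 and had -0.20 and 0.29, the opposite signs. FDX1L, the ferredoxin now called FDX2 that serves iron-sulfur cluster assembly, averaged 6.71 and had 0.28 and -0.11. CYP24A1, the vitamin D hydroxylase, was the most abundant P450 at 94.8 scaled RPM and had -0.35 and 0.37. The cholesterol side-chain cleavage enzyme gene CYP11A1, the classic acceptor of this electron chain, averaged 0.411 scaled RPM in experiment 1 and failed the filter.

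All 23 genes of the iron-sulfur assembly list passed the filter, and limma called 0 of them in each comparison, as it called 0.0% of all rows. Their median was -0.09 for Nutlin-3a without peptide and 0.14 for the peptide under Nutlin-3a. HSPA9, the mitochondrial chaperone of the pathway, had fitted differences of -0.19 and 0.14 in these comparisons. The scaffold gene ISCU, also reported as a p53 target, had a log2 difference of 0.64 with Nutlin-3a in experiment 1 and 0.21 in experiment 2. Of the 10 iron-handling genes 9 passed the filter and 0 were called, again as for all rows, with medians of 0.06 and 0.08. FTH1 and TFRC, which encode ferritin heavy chain and the transferrin receptor, had 0.16 and 0.00 with Nutlin-3a without peptide over both experiments. FTH1 had 0.32 in experiment 1 and 0.04 in experiment 2, while TFRC had opposite signs, -0.32 and 0.22.

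The other genes of the glutamate receptor list past the filter had smaller differences than GRIN2C in experiment 1, of either sign. The list includes GRINA and DLG4, which do not encode receptor subunits. On that list of 20 genes, GRIN2C among them, 13 passed the filter and limma called 0 in each comparison, as it called 0.0% of all rows. The medians were -0.04 for Nutlin-3a without peptide and -0.06 for the peptide under Nutlin-3a. Without GRIN2C the medians of the other 12 in experiment 1 were -0.05 and 0.01. GRINA, a membrane protein gene, was the most abundant of the list at a mean of 80.9 RPM over the 20 libraries. It had 0.42 and -0.15 in experiment 1, and GRIK5, a kainate receptor subunit gene, 0.37 and -0.63, both with the signs of GRIN2C. GRIN2D, the most closely related subunit gene among those detected, averaged 0.736 scaled RPM per kb in experiment 1, close to the 0.608 of GRIN2C. Its differences in experiment 1 were 0.15 with Nutlin-3a and -0.37 with the peptide under Nutlin-3a. GRIN1, which encodes the obligatory NMDA receptor subunit, averaged 0.263 scaled RPM per kb in experiment 1 and had -0.005 and -0.20. GRIN2B averaged 0.213 per kb and had -0.66 and 0.50, opposite in sign to GRIN2C.

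Of the 14 genes on the list of astrotactins and neuronal migration, 4 passed the filter, ASTN2 among them, and limma called 0, as it called 0.0% of all rows. ASTN1, the partner of ASTN2 in mouse neurons, averaged 0.160 scaled RPM in experiment 1 and failed the filter, as did DCX, a microtubule protein of migrating neurons, at 0.108. The genes of the list that passed beside ASTN2 were PAFAH1B1, TRIM32 and RELN. PAFAH1B1, which encodes a dynein regulator, had -0.46 with Nutlin-3a without peptide in experiment 1 and 0.21 with the peptide under Nutlin-3a, and RELN, a secreted guidance protein gene, -0.45 and 0.58. Both were opposite in sign to ASTN2.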

How the data were processed

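Nuclear RNA was sequenced with a directional, ribosomal-RNA-depleted kit, per the labels' protocols. The submitters' processing notes name HISAT2, bedtools, limma and hg38, without versions or roles. The values the authors deposited were in a unit of their own, a score per row equal to RPM divided by (stop - start/1000). Multiplied back, 100% of values were whole reads within 0.001, and each library summed to 1000000 RPM. No column was left unmapped. From there, libraries were scaled by TMM (trimming 30% and 5%), and limma 3.58.1 in R 4.3.3 was fitted with trend to log2(scaled RPM + 0.5) of 15958 rows (mean of at least 0.5 RPM), with condition and experiment as terms and Benjamini-Hochberg adjustment over all rows, called under 0.05. The design table assumed the same unit. The fit was also run on simulated counts, which had no shared deviations between same-numbered libraries, so that run cannot measure its power here.

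The members and gene lists were chosen with earlier results of these data known, so Nutlin-3a without peptide and the peptide under Nutlin-3a carry no p for them. Named genes are the members, rows adjacent to or inside their spans, up to 6 of the most abundant members of a list, the 5 most alike rows per member, CDKN1A, MDM2 and fixed cell markers. CYP11A1, GRIK5, ISCU, ASTN1, DCX, NAT9, PAPPA, PAPPA-AS1, the end points of ranges and the tandem pairs named were chosen after their values were seen. Same-numbered libraries were taken as pairs from the values, since no label states it: their deviations from condition means correlated at 0.286 to 0.585 in experiment 1 (12 pairs) and at 0.877 to 0.940 in experiment 2 (18 pairs). In experiment 1, with 2 libraries a condition, the deviations mirror each other, so each correlation appears again under the other replicate number. Intervals for read ratios are exact 95% intervals. Alternatives covered scaling, filter, pseudocount, limma-voom, replicate blocks, each experiment alone and leaving out each library; fits combining blocks with 1 experiment, with the difference between experiments or without Nutlin_H2O replicate 2 of experiment 1 were chosen after seeing the data. Sequences are from RefSeq (GRCh38.p14), which in the table used gave windows for FDXR and ASTN2, 2 of the 3 members.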

Additional observations from a re-analysis of the deposited data

How the results depend on the processing

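The 2 experiments set the values. In experiment 1 alone, Nutlin-3a against DMSO without peptide gave 1.31 for FDXR, 1.75 for GRIN2C and 0.87 for ASTN2. The peptide under Nutlin-3a gave -1.21 for FDXR, -2.55 for GRIN2C and -0.84 for ASTN2. In experiment 2 alone the same results were 0.054, 0.44, 0.18, 0.079, -0.014 and -0.13. The replicate block within 1 experiment gave the same log2 differences as without it. GRIN2C in peptide cells reversed to -0.63 in experiment 1 alone, with or without the block, against 0.08 over both. Limma-voom, in which well-counted libraries weigh more, gave ASTN2 0.71 and -0.68, and with the replicate block 0.73 and -0.70. With the replicate block the pair's r in experiment 2 reversed to 0.45, and as Spearman rho that of experiment 1 was 0.45. For these moves the cause was not tested.

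Limma called 0 rows in each of the 4 comparisons with and without the replicate block, and 0 in each of the 20 fits that left out 1 library. Limma-voom with the replicate block called 15, 3, 0 and 16 rows (Nutlin-3a without peptide, peptide under Nutlin-3a, peptide without Nutlin-3a, Nutlin-3a in peptide cells). Experiment 1 alone called 1 row in each of the last 3 comparisons, and with the replicate block 1 each as well. Without a filter 1 row was called in the last, and the block without Nutlin_H2O replicate 2 of experiment 1 called 5 rows in the first. Among the other alternatives, 197 results were labelled as unchanged, 36 as moved and 3 as reversed. The 20 fits that left out 1 library are not in this tally, and in them some small differences changed sign. Results without a p have no threshold to cross.

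Leaving out 1 library at a time gave, for Nutlin-3a without peptide, 0.32 to 0.74 (FDXR), 0.70 to 1.33 (GRIN2C) and 0.29 to 0.53 (ASTN2), and for the peptide under Nutlin-3a -0.62 to -0.20, -1.49 to -0.76 and -0.54 to -0.26. For the peptide without Nutlin-3a it gave -0.059 to 0.13, -0.35 to 0.11 and 0.03 to 0.15, and for Nutlin-3a in peptide cells -0.0098 to 0.19, -0.38 to 0.30 and -0.19 to 0.0082. The pair's r stayed between 0.81 and 0.97 in experiment 1 and between -0.66 and -0.45 in experiment 2. ASTN2 in experiment 2 rests on 17 to 52 reads a library, on a shorter row.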
